A study of Homo sapiens with 18 samples.

Results

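H3K4me1, the monomethylation of lysine 4 on histone H3, was compared between untreated and TGF-β1-treated cells of the human lung adenocarcinoma line H2087-LCC. The members were all deposited H3K4me1 peak summits of these libraries on chromosomes 1 to 22 and X of hg19. They numbered 142611 in untreated cells (here LCC) and 143813 in treated cells (here TGFb), together 286424 of the 947675 summits in the 13 lists of the study. A summit is the single base at which a called peak was highest. Each library was 1 sample, so no difference below carries a test. Intervals cover only counting error or, for medians, the sampling of sites, and leave out differences between libraries.

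By ChIP-seq, the sequencing of DNA pulled down with an antibody against chromatin, 3 histone marks were profiled in 4 conditions of established lung adenocarcinoma lines. LCC cells grew in RPMI medium with serum and added hydrocortisone, selenite, insulin, transferrin, albumin and epidermal growth factor, and these additions were shared by the treated cells. TGFb cells received TGF-β1 at 100 nM for 4 days, as the labels give it; such a dose is far above common practice with TGF-β1, and it was taken as given. H2087-LCC-SO1 (SO1), a derivative named after H2087-LCC and grown in the same medium, and H2030, another lung adenocarcinoma line grown in a simpler medium, served here as reference lists only. The labels name no vehicle for the untreated cells, so cytokine, solvent and days in culture cannot be told apart. The H3K4me1 antibody was from Abcam, and cells were crosslinked with formaldehyde. LCC H3K27ac, with 2 numbered biological replicates, was the only mark and condition with more than 1 library, and its replicates are set side by side wherever they are used. The files hold no read counts, so the depth of each library is unknown. Genes were not placed on these coordinates, because the annotation at hand is of another build, so the label "lung adenocarcinoma" was not checked against marker genes.

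H3K4me1 is laid down by the MLL3 and MLL4 methyltransferases at enhancers, including primed enhancers that are not yet active, and on the flanks of active promoters. Acetylation of lysine 27 (H3K27ac) marks the enhancers and promoters that are active, and trimethylation of lysine 4 (H3K4me3) marks promoters. TGF-β binds a receptor kinase pair that phosphorylates SMAD proteins, which enter the nucleus and bind enhancers together with partner factors. In epithelial and lung adenocarcinoma cells the pathway is known for inducing epithelial-mesenchymal transition.

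Most H3K4me1 summits of LCC had a TGFb summit nearby. Of the LCC summits, 62.1% (95% Wilson interval 61.8 to 62.3) had a TGFb summit within 500 bp, and 94.8% had one within 10 kb. Seen from the treated cells, 61.6% (61.4 to 61.9) of the TGFb summits had an LCC summit within 500 bp, and 94.5% had one within 10 kb. The LCC list was found less completely in SO1, at 53.7% within 500 bp, and least in H2030, at 35.0%. Within 10 kb the shares were 89.8% in SO1 and 74.3% in H2030. These lists were shorter, with 128082 (SO1) and 132848 (H2030) summits. Seen from them, 59.6% of SO1 and 37.6% of H2030 summits had an LCC summit within 500 bp, so SO1 came close to TGFb in this direction. The LCC and TGFb lists were alike in length. Their median score, a −log10 p or q value read as a rank within its own list, was 11.6 in LCC and 11.1 in TGFb.

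Sharing depended on the rank of the summit. In the lowest-scoring decile of the LCC summits, 32.4% had a TGFb summit within 500 bp, and in the seventh decile 80.1% did. The share was lower again, at 71.7%, in the highest-scoring decile. Nearly all summits of that decile, 14262 of 14264, had a TGFb summit within 10 kb, against 87.4% of the lowest. Neighbouring summits of a list lay a median of 5548.5 bp (LCC) and 5471 bp (TGFb) apart, so a summit within 10 kb need not belong to the same peak. The same shape was seen for LCC summits in SO1 and in H2030, where the highest decile reached 66.7% and 39.6%.

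**Figure D1:**
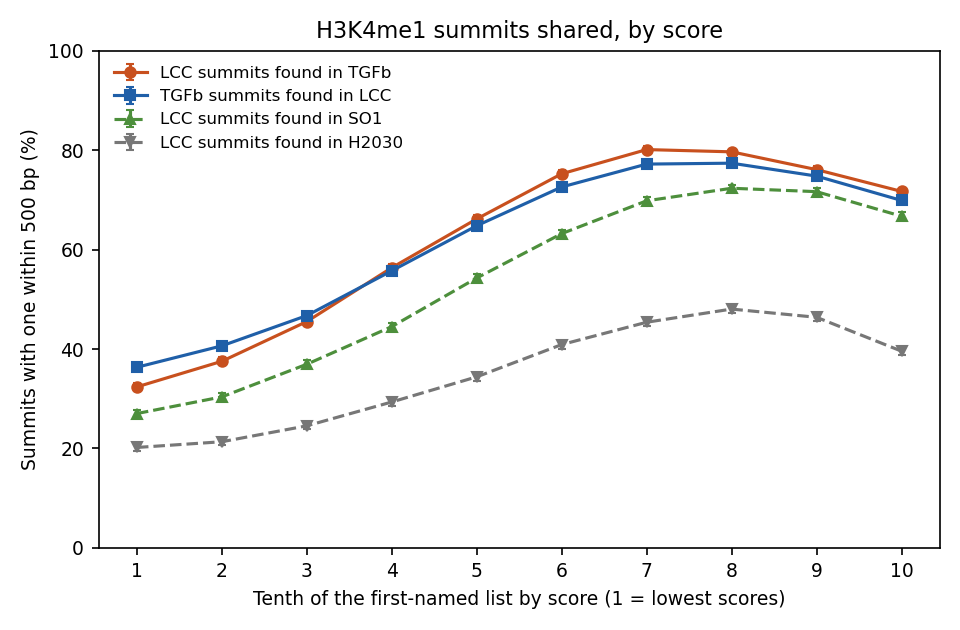
Share of H3K4me1 summits with a summit of another list within 500 bp (y axis, percent) by decile of the first-named list ranked by score (x axis, 1 = lowest scores). Points are shares with 95% Wilson intervals, and the TGFb curve of LCC summits runs from 32.4% to 80.1% in the seventh decile and 71.7% in the last, above the SO1 and H2030 curves.

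H3K4me1 summits were sorted by nearby H3K4me3 and H3K27ac, and the share with H3K27ac but no H3K4me3, here called active distal, was larger in TGFb. Distal means here only that no H3K4me3 summit lay within 1 kb. An H3K4me3 summit of the same condition lay within 1 kb of 16.7% of LCC and 17.6% of TGFb summits. Summits with H3K27ac but no H3K4me3 made up 17.1% of the LCC list by H3K27ac replicate 1 and 22.4% by replicate 2, against 26.6% of the TGFb list. The remaining summits, with neither mark, were 66.2% and 60.8% in LCC and 55.8% in TGFb. The TGFb H3K27ac list was also the longest, with 68069 summits against 50628 and 62947 in the LCC replicates, and its part in this difference was not tested. In each condition the active distal summits ranked highest, with a median percentile of 83.6 (replicate 1) and 78.4 (replicate 2) in LCC and 73.0 in TGFb. The percentile is the rank of a score within its own list, from 0 to 100. Summits with neither mark had median percentiles of 36.9 and 35.1 in LCC and 33.9 in TGFb.

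Around strong promoters, H3K4me1 summits flanked the H3K4me3 summit in both conditions, and the central dip was shallower in TGFb. For each 1000 H3K4me3 summits in the upper part of the list, split at its median score, there were 41.1 H3K4me1 summits within 250 bp in LCC and 67.9 in TGFb. Between 500 and 750 bp the values were 391 in LCC and 366 in TGFb, and between 750 and 1000 bp they were 392 and 360. Between 1000 and 1250 bp they were still 282 and 260. Some summits called distal, with no H3K4me3 summit within 1 kb, can thus lie on promoter flanks. Below the median score the dip was absent: 304 H3K4me1 summits per 1000 in LCC and 295 in TGFb lay within 250 bp. Beyond 2000 bp the upper-part curves ran together, at 89.3 and 88.5 per 1000 between 2000 and 2250 bp. The H3K4me3 lists differed in length (26049 in LCC, 28850 in TGFb) and in median score (189 and 147), so the parts above the median are not the same promoters in each condition.

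**Figure D2:**
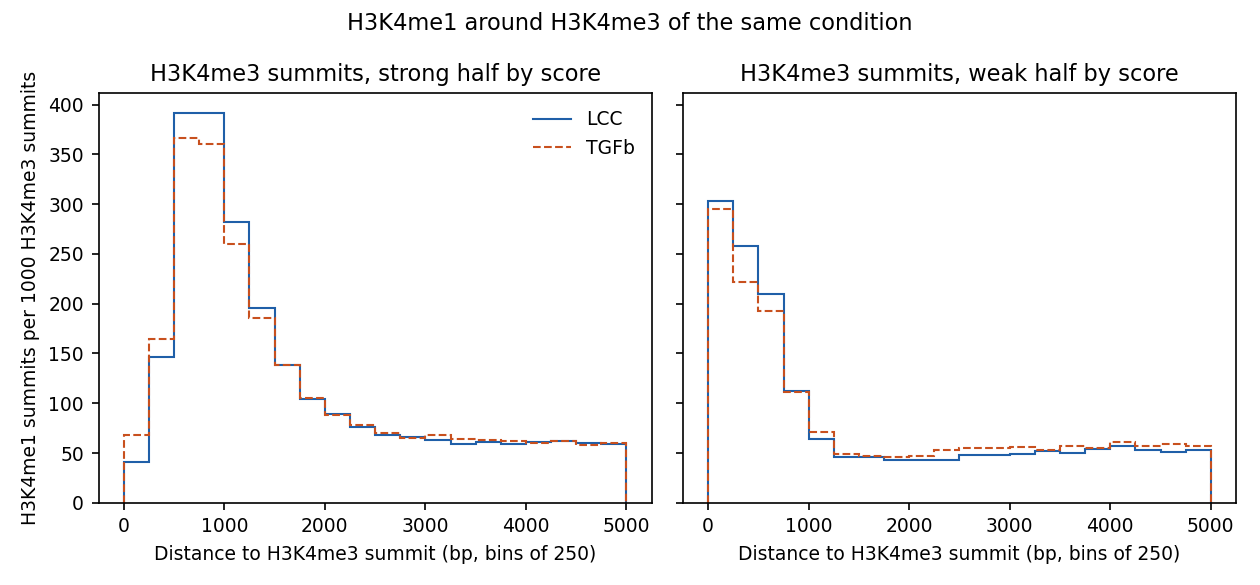
H3K4me1 summits per 1000 H3K4me3 summits of the same condition (y axis) by distance in bins of 250 bp (x axis), for H3K4me3 summits above (left) and below (right) the median score of their list. In the left panel the first bin holds 41.1 in LCC (solid line) and 67.9 in TGFb (dashed line), and both curves peak between 500 and 1000 bp.

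To compare the rank of the same site in both conditions, each LCC summit was paired with the TGFb summit that was mutually its nearest, within 500 bp. This gave 87557 pairs, with a median distance of 118 bp. Across the pairs the score ranks of LCC and TGFb had a Spearman rho of 0.72, compared with 0.64 over 75755 pairs of LCC with SO1 and 0.37 over 49274 pairs of LCC with H2030. These are correlations across sites that share their 2 libraries, and sites are not independent replicates. The median difference in percentile, TGFb minus LCC, was -0.53 points, and the middle 50% of pairs lay between -12.6 and 10.7 points. Ranks remove any shift of the whole list, so only differences between sites can be read from these values.

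The H3K4me1 rank differed between conditions in step with H3K27ac at sites without an H3K4me3 summit within 1 kb. Where H3K27ac was found within 1 kb in TGFb and in neither LCC replicate (8018 pairs), the median H3K4me1 percentile was 50.2 in LCC and 66.2 in TGFb. The median of the differences was 12.1 points (95% interval of the median over pairs 11.6 to 12.6), and 73.7% of these pairs ranked higher in TGFb. The interval treats pairs as independent, which they are not. Where H3K27ac was found in both LCC replicates and not in TGFb (1767 pairs), the median H3K4me1 percentile was 79.6 in LCC and 65.2 in TGFb. There the median difference was -9.97 points (-11.3 to -8.56), and 26.8% of the pairs ranked higher in TGFb. Sites with acetylation in 1 condition only were thus ranked higher for H3K4me1 in that condition.

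Sites whose acetylation did not differ had medians near 0 but a wide spread. With H3K27ac in all 3 libraries (10392 pairs), the median percentile was 86.6 in LCC and 84.3 in TGFb, with a median difference of -1.41 points. With H3K27ac in none (32998 pairs), it was 41.9 and 40.7, with a median difference of -1.02 points. The middle 50% of these 32998 pairs lay between -15.6 and 13.0 points, and 16.8% ranked at least 20 points higher and 19.7% at least 20 points lower in TGFb. They also held 519 of the 1107 distal pairs that were at least 50 points higher in TGFb, and 578 of the 1106 that were at least 50 points lower. A large share of the largest H3K4me1 differences thus lay at sites without an H3K27ac summit in either condition. The LCC replicates show how far the acetylation calls vary. Pairs with H3K27ac in LCC replicate 1 alone differed by a median of -6.32 points and those with it in replicate 2 alone by -9.01 points, while pairs acetylated in TGFb and 1 replicate differed by 0.15 (replicate 1) and 2.20 points (replicate 2). When only LCC replicate 1 was used to call acetylation, the median at sites acetylated in TGFb only was 7.75 points over 13093 pairs. With the 3 H3K27ac lists reduced to the same number of highest-scoring summits, the medians were 13.3 points for TGFb only and -10.4 for both LCC replicates only. Widening the acetylation window to 2500 bp left 1389 pairs acetylated in both LCC replicates only, with a median of -15.5 points.

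Near H3K4me3 the relation was much smaller. For pairs with an H3K4me3 summit of either condition within 1 kb and H3K27ac in TGFb only (1172 pairs), the median H3K4me1 percentile was 60.02 in LCC and 62.4 in TGFb, with a median difference of 0.66 points. With H3K27ac in both LCC replicates only (662 pairs) it was 76.7 and 74.0, with a median difference of -1.26 points. Whether the distal and promoter groups differ was not tested. Sorting the pairs by H3K4me3 instead gave small differences too: pairs with H3K4me3 in TGFb only (2856) had median percentiles of 81.1 in LCC and 82.1 in TGFb, and pairs with it in LCC only (1528) had 75.2 and 72.3. The labels do not say whether the H3K27ac and H3K4me1 libraries of a condition came from the same culture. It is also not known whether their peaks were called against the same input.

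**Figure D3:**
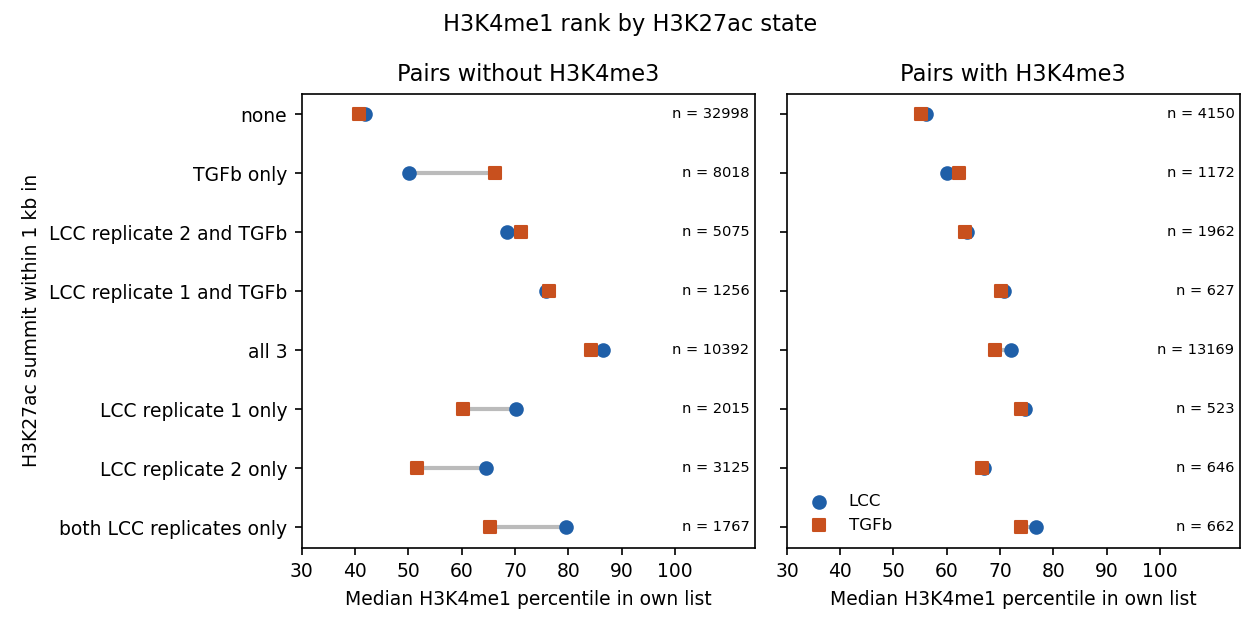
Median H3K4me1 percentile of paired summits in LCC (circles) and TGFb (squares) on the x axis, by the libraries with an H3K27ac summit within 1 kb (y axis), for pairs without (left) and with (right) H3K4me3 within 1 kb. The markers are farthest apart on the left for TGFb only (50.2 and 66.2) and for both LCC replicates only (79.6 and 65.2).

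Pairs with a difference of at least 50 percentile points were few and about as many in each direction. TGFb-high pairs numbered 1198 (1.37% of the pairs) and LCC-high pairs 1305 (1.49%). Of the TGFb-high pairs, 53.1% (95% interval 50.3 to 55.9) had H3K27ac within 1 kb in TGFb, against 5.43% in LCC replicate 1 and 11.7% in replicate 2. Over all pairs the values were 47.6% in TGFb and 34.7% and 42.0% in the LCC replicates, so of these shares those in LCC differed most. H3K4me3 was also scarcer at TGFb-high pairs, at 6.34% (LCC) and 7.35% (TGFb) against 22.9% and 24.4% of all pairs. TGFb-high pairs ranked low in LCC by choice, so all pairs are not a matched comparison. Of the LCC-high pairs, 33.6% and 41.8% had H3K27ac in the LCC replicates and 24.6% (22.3 to 27.01) had it in TGFb. A summit of the lower-ranked list with at least the score of the higher-ranked summit lay within 5 kb of 225 TGFb-high and 282 LCC-high pairs. Without these, 54.0% of 973 TGFb-high pairs had H3K27ac in TGFb, and 3.91% and 10.3% had it in the LCC replicates.

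Among the 10 TGFb-high pairs with the largest differences, H3K27ac lay within 1 kb in TGFb at 7, in either LCC replicate at 0 and in SO1 at 5. The examples named from them were chosen after their values were seen, and 4 of the 5 are among the 7 with TGFb H3K27ac. On chromosome 1 the LCC summit at chr1:17294091 scored 2.57 (percentile 2.75) and the TGFb summit at chr1:17294456 scored 92.1 (percentile 99.4). A TGFb H3K27ac summit with a score of 203 lay between them, while the nearest LCC H3K27ac summits were 43106 bp (replicate 1) and 6584 bp (replicate 2) away. At chr5:144863945 the LCC score was 2.18 and the TGFb score was 42.5. The TGFb H3K27ac summit there scored 17.2, and the nearest LCC H3K27ac summit was 291627 bp away. At chr4:108611891 the LCC score was 3.23 and the TGFb score 52.3, with TGFb H3K27ac of 15.2 and the nearest LCC H3K27ac 28883 bp away. At chr11:73104501 the scores were 2.55 and 39.4, with TGFb H3K27ac of 17.4 and LCC H3K27ac at least 12813 bp away. SO1 also had H3K27ac within 1 kb of the sites on chromosomes 4 and 11, with scores of 9.21 and 58.7. At chr16:9939623 the LCC score was 2.61 and the TGFb score 40.1, but the nearest TGFb H3K27ac, of 75.3, lay 1215 bp away. SO1 had H3K27ac of 7.02 at 25 bp from this site.

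Among the 10 LCC-high pairs with the largest differences, H3K27ac lay within 1 kb in both LCC replicates at 5, in either at 7 and in TGFb at 3. These examples, too, were chosen after their values were seen. At chr15:62619421 the LCC summit scored 48.3 and the TGFb summit 3.88. H3K27ac there scored 45.4 and 14.5 in the LCC replicates, and the nearest TGFb H3K27ac, of 4.62, was 4869 bp away. At chr7:39571942 the scores were 40.8 in LCC and 2.36 in TGFb, and no H3K27ac summit of either condition lay within 33 kb. At chr7:17520150 they were 33.0 and 1.34, also without H3K27ac of either condition within 25 kb. At these last sites the difference in H3K4me1 was seen without acetylation nearby in either condition.

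Sites with H3K4me1 in 1 condition and no summit of the other list within 10 kb were few. Summits of both lists were merged within 1000 bp into 163642 elements, of which 97067 held summits of both. An element was called TGFb-only or LCC-only when the other list had no summit within 10 kb, and strong when its score reached the median of its own list. A further 52331 elements had their nearest summit of the other list between 1 and 10 kb away and fell in neither class. TGFb-only strong elements numbered 895, which was 0.685% of the 130657 elements with a TGFb summit. LCC-only strong elements numbered 558, or 0.429% of the 130052 elements with an LCC summit. Without the condition on strength there were 7394 TGFb-only (5.66%) and 6850 LCC-only (5.27%) elements. TGFb-only strong elements outnumbered LCC-only ones at every distance tried: 8422 and 6776 with 1 kb free of the other list, 1652 and 1083 with 5 kb, and 331 and 164 with 25 kb. Their numbers thus depended strongly on this distance.

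The files hold no peak widths, so it cannot be seen whether a called peak of the other list, with its summit farther away, reached over an element. A summit of the other list within 50 kb reached or exceeded the element's own score for 552 of the 895 TGFb-only and 383 of the 558 LCC-only strong elements. This left 343 TGFb-only and 175 LCC-only elements with no flanking summit as strong, a condition added after the data were seen. For 126 TGFb-only and 54 LCC-only elements there was no summit of the other list at all within 50 kb.

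H3K27ac, which played no part in choosing these elements, differed between the conditions in the same direction as H3K4me1. Of the TGFb-only strong elements, 35.0% (31.9 to 38.2) had H3K27ac within 1 kb in TGFb, against 0.782% in LCC replicate 1 and 1.90% in replicate 2. At the 343 without a strong flank the shares were 41.1% in TGFb and 1.17% and 1.75% in the LCC replicates. Of the LCC-only strong elements, 14.7% (12.0 to 17.9) and 21.3% (18.1 to 24.9) had H3K27ac in the LCC replicates and 7.35% (5.46 to 9.82) had it in TGFb. At the 175 without a strong flank the shares were 20.0% and 21.7% in LCC and 9.71% in TGFb. With H3K27ac lists of equal length, acetylation in TGFb was found at 25.0% of the TGFb-only and 3.94% of the LCC-only strong elements, and acetylation in either LCC replicate at 1.23% and 25.4%.

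Most condition-specific H3K4me1 therefore carried no acetylation within 1 kb in its own condition. For comparison, the 73269 strong elements shared by both lists had H3K27ac at 43.8% and 52.3% in the LCC replicates and 58.3% in TGFb. Acetylation in both LCC replicates without TGFb was found at 0 of the 895 TGFb-only strong elements and at 20 of the 558 LCC-only ones (3.58%), beside 3.69% of the shared strong elements. The LCC-only share was thus close to that of shared elements. Acetylation in TGFb without either LCC replicate was found at 298 (33.3%) and 3 (0.538%) of them, beside 11.7% of the shared strong elements.

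Promoters made up little of the condition-specific H3K4me1. H3K4me3 lay within 1 kb of 0.894% (LCC H3K4me3) and 1.45% (TGFb H3K4me3) of the TGFb-only strong elements, and of 7.17% of the LCC-only strong elements by either list. At shared strong elements the shares were 24.2% and 26.3%.

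Many of these elements were present in the other lines. An H3K4me1 summit of SO1 lay within 1 kb of 55.5% (52.3 to 58.8) of the TGFb-only and 41.6% (37.6 to 45.7) of the LCC-only strong elements. In H2030 the shares were 29.1% (26.2 to 32.1) and 15.2% (12.49 to 18.5), and the last of these was 6.86% at the 175 LCC-only elements without a strong flank. Neither line had a summit there for 34.2% of the TGFb-only and 53.6% of the LCC-only strong elements. At shared strong elements SO1 was present at 85.3% and H2030 at 58.1%. A TGFb-only element is thus one that LCC lacked, and for most of them another list of the study, from cells without the cytokine in their labels, held a summit.

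**Figure D4:**
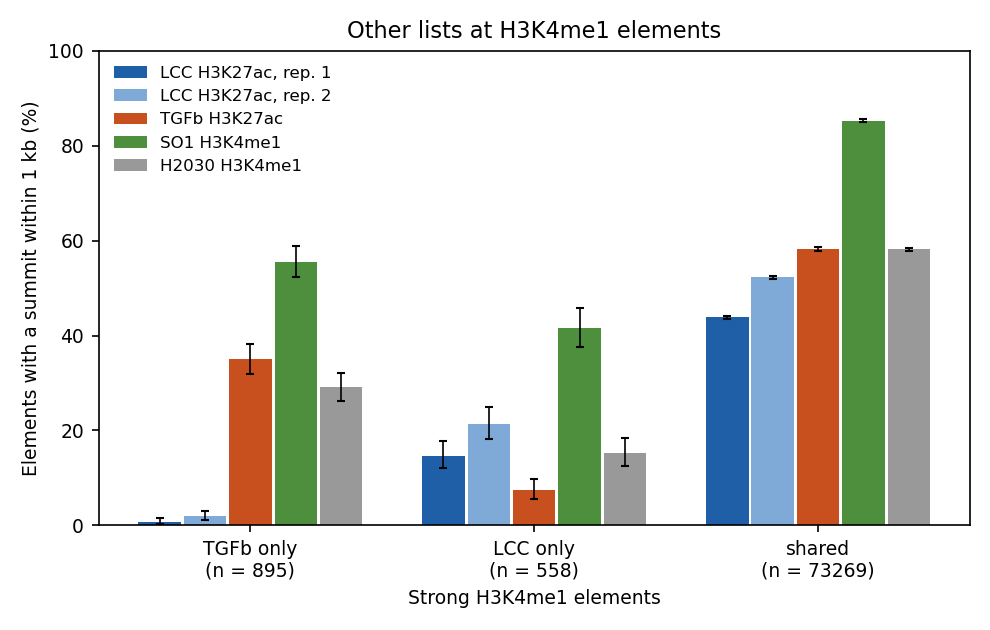
Share of strong H3K4me1 elements with a summit of another list within 1 kb (y axis, percent), for TGFb-only, LCC-only and shared elements (x axis), with 95% Wilson intervals. TGFb H3K27ac stands at 35.0% of TGFb-only elements against 0.782% and 1.90% in the LCC replicates, and at 7.35% of LCC-only elements against 14.7% and 21.3%.

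The 10 TGFb-only strong elements with the highest scores mostly had a strong LCC summit within 50 kb. The highest, at chr8:128903072, scored 195 in TGFb, and the nearest LCC summit, 13413 bp away, scored 132. H3K27ac lay within 1 kb of it in all 3 libraries, with scores of 106 and 181 in the LCC replicates and 171 in TGFb. H3K4me3 also lay within 1 kb in both conditions, with scores of 97.8 in LCC and 59.0 in TGFb. The next, at chr8:128867579, scored 182, and those at chr10:34988708, chr5:14186979 and chr10:34999848 scored 145, 109 and 99.3. LCC H3K27ac of 215 (replicate 1) and 297 (replicate 2) lay 1133 and 1203 bp from chr8:128867579. For 7 of the 10 an LCC summit within 50 kb scored at least as high, so LCC was also strongly marked in their surroundings. The same held for 6 of the 10 highest LCC-only elements, which were led by chr22:30017416 (77.4), chr5:14209256 (59.4), chr3:186747662 (44.1) and chr7:16639407 (40.3).

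Some elements without a strong flank, picked after their values were seen, gave clearer contrasts. The highest-scoring of this set were again chr8:128903072, chr8:128867579 and chr10:34988708. LCC summits of up to 137, 147 and 132 lay within 50 kb of them. LCC H3K27ac lay within 1 kb of chr8:128903072 and of chr10:34988708, at the latter with scores of 37.4 and 135. The examples that follow ranked lower. At chr9:137444621 the TGFb summit scored 56.0, the nearest LCC H3K4me1 summit was 37777 bp away and the highest LCC summit within 50 kb scored 12.4. TGFb H3K27ac lay 314 bp away with a score of 173, and the nearest LCC H3K27ac was 50035 bp (replicate 1) and 96524 bp (replicate 2) away. At chr12:68375654 the TGFb summit scored 36.4, and no LCC H3K4me1 summit lay nearer than 124681 bp. TGFb H3K27ac there scored 101.2, while the nearest LCC H3K27ac was 257988 bp away. SO1 had H3K4me1 of 29.4 and H3K27ac of 13.2 at the same place. The element at chr21:39616303 scored 50.2, with TGFb H3K27ac of 138 and LCC H3K27ac at least 24714 bp away. The element at chr2:241860698 also scored 50.2, with TGFb H3K27ac of 66.1 and LCC H3K27ac at least 65693 bp away. At chr11:119664751-119665731, with 2 TGFb summits of up to 54.2, TGFb H3K27ac was weak, with a score of 8.51.

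Of the 10 highest-scoring LCC-only elements without a strong flank, 2 had H3K27ac within 1 kb in both LCC replicates. At chrX:100138491 the LCC summit scored 30.01 and H3K27ac scored 17.0 and 26.0, while the nearest TGFb H3K27ac was 45592 bp and the nearest TGFb H3K4me1 18017 bp away. At chr8:56597949-56598786, 2 LCC summits reached 29.4 and H3K27ac scored 6.27 and 14.4. The nearest TGFb H3K4me1 was 78521 bp away, and the nearest TGFb H3K27ac was 86939 bp away. By contrast, the LCC-only element at chr13:95432796 (33.6) had its nearest H3K27ac of the 3 libraries 48594 bp away.

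Clusters, here 3 or more summits of 1 list joined within 5 kb, were rarely specific to a condition. TGFb-only clusters numbered 144 of 15720 (0.916%) and LCC-only clusters 112 of 15498 (0.723%), with no summit of the other list within 10 kb. TGFb H3K27ac was found at 43.8% of the TGFb-only clusters, against 1.39% and 4.17% for the LCC replicates. At the LCC-only clusters it was 5.36% for TGFb and 18.8% and 17.9% for the LCC replicates. Their scores were mostly low, with a median of the highest score per cluster of 9.73 in TGFb and 8.97 in LCC, both below the median of all summits of the list.

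Among the 5 TGFb-only clusters with the most summits, 3 lay next to each other on chromosome 5. They were chr5:136696728-136715941 with 7 summits, chr5:136633359-136646377 with 6 and chr5:136728283-136740771 with 5. The cluster at chr22:27502144-27512577 had 7 summits in TGFb and 2 TGFb H3K27ac summits of up to 33.0. H2030 had 4 H3K4me1 summits in it, and the nearest SO1 H3K4me1 summit was 210858 bp away. The cluster at chr7:35502589-35507520 had 5 summits and 3 TGFb H3K27ac summits, with LCC H3K27ac at least 138317 bp away. The largest LCC-only clusters were chr13:39393147-39401219 with 6 summits and chr20:23003385-23011172 with 5. The one at chrX:20333895-20338398 had 5 summits, with 1 and 2 H3K27ac summits in the LCC replicates, and the nearest TGFb H3K27ac was 42266 bp away.

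The chromosome 5 clusters belonged to a longer region, which was examined after it had been seen. Between the LCC summits at chr5:136554015 and chr5:136802583, a distance of 248.6 kb, TGFb had 34 H3K4me1 summits. LCC had 1 there, with a score of 16.7, SO1 had 1 with a score of 2.33, and H2030 had 8 with scores of up to 22.9. The TGFb scores ran from 1.74 over a median of 10.1 to 51.5, and 17 of the 34 were at or above the median of the whole TGFb list. The highest, of 51.5 and 50.4, lay within 1 kb of LCC summits of 16.7 (inside) and 22.9 (at the left end). The next highest TGFb summit scored 30.7. Acetylation inside the region was sparse, with 2 TGFb H3K27ac summits of up to 26.2 and 1 LCC summit in replicate 1, of 11.7, at the edge. The region was therefore filled with H3K4me1 in TGFb but mostly not acetylated.

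Immediately beyond its right end the conditions differed in H3K27ac and H3K4me3. In the next 50 kb TGFb had 8 H3K27ac summits, the highest at chr5:136805815 with a score of 355. The LCC replicates had 1 and 2 there, with scores of up to 7.71 and 11.6. H3K4me1 was present in both conditions, with 7 summits of up to 68.3 in TGFb and 5 of up to 40.5 in LCC, counting the LCC summit that ends the region. At chr5:136834834 an H3K4me3 summit was found in TGFb, scoring 423, and H2030 had 1 of 393 in the same 50 kb. No LCC or SO1 H3K4me3 summit lay in the region or in these 50 kb.

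**Figure D5:**
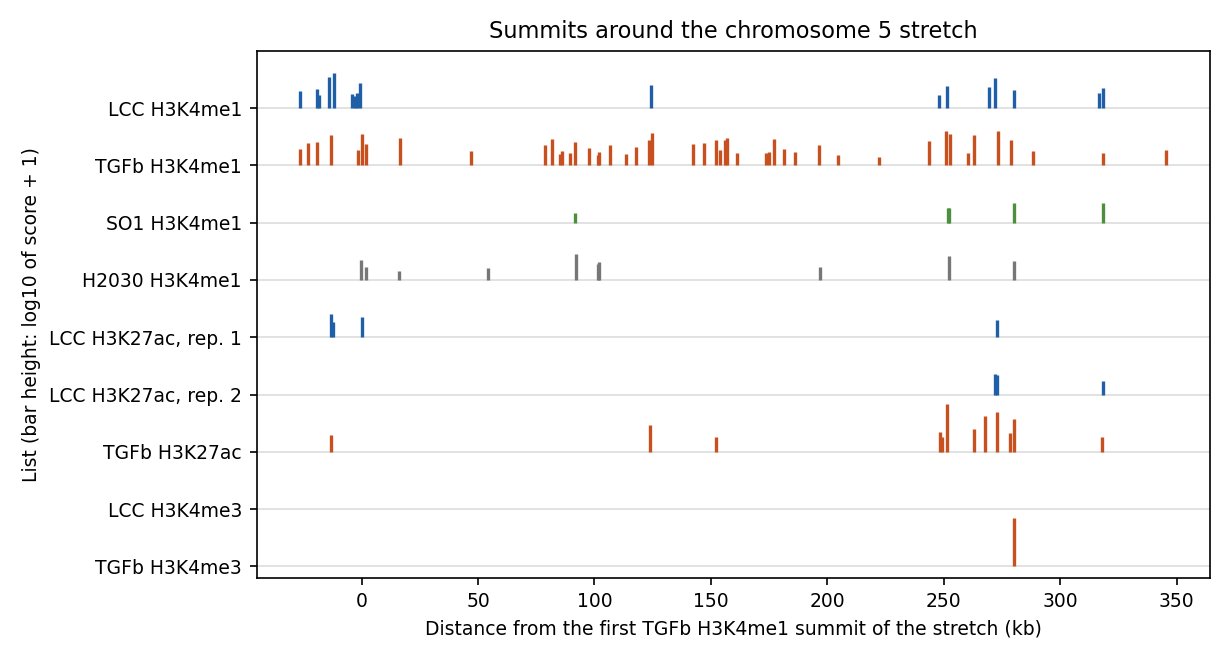
Summits of 9 lists around the chromosome 5 region, by distance in kb from its first TGFb H3K4me1 summit (x axis); the bar height is the log10 of the score plus 1. The region from 0 to 248 kb holds 34 TGFb and 1 LCC H3K4me1 summits, and to its right stand 8 TGFb H3K27ac summits and the TGFb H3K4me3 summit.

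The longest stretches of this kind were more frequent in TGFb than in LCC, while those of 5 or more summits were nearly as many in each. Counted as gaps between neighbouring summits of 1 list, again after the data were seen, 16 gaps of the LCC list held 10 or more TGFb summits, and 2 gaps of the TGFb list held 10 or more LCC summits. With 8 or more the numbers were 61 and 25, and with 5 or more they were 750 and 719. The lists that formed the gaps held 142611 (LCC) and 143813 (TGFb) summits, so gaps were about as many in each. A counted summit could lie within 500 bp of the summit of the other list that ended its gap. The chromosome 5 region made up 2 of the 16, with 17 TGFb summits each. The next was chr8:72767055-73019427, with 15 TGFb summits and none in LCC between its ends. The highest TGFb summit, of 42.9 at chr8:73019372, lay within 500 bp of the LCC summit of 67.2 that ended the gap. The first, of 32.1, likewise lay within 500 bp of the LCC summit of 16.8 at the other end. SO1 had 1 summit in this stretch and H2030 had 35, along with 15 H3K27ac summits. The longest LCC stretches held 11 summits (chr20:22943953-23025058), 10 (chr18:60479879-60548541) and 9 (chr17:66539715-66576176). In the chromosome 20 stretch the LCC replicates had 1 and 3 H3K27ac summits and TGFb had none.

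Over the genome as a whole the distribution of H3K4me1 summits was nearly the same. In 5466 blocks of 500 kb the counts of LCC and TGFb had a Spearman rho of 0.98, compared with 0.94 for LCC with SO1 and 0.80 for LCC with H2030, across blocks of unequal mappability. No block with 15 or more summits in 1 list had at most 5% of that number in the other, while 11 such LCC blocks were found against SO1 and 35 against H2030. At most 50% was found in LCC for 24 of 3480 TGFb blocks (0.69%) and in TGFb for 4 of 3443 LCC blocks (0.116%). Examples of the former were chr14:72500001-73000000 with 3 LCC and 15 TGFb summits, chr20:7000001-7500000 with 7 and 22, and chr3:139500001-140000000 with 10 and 27. The last of these had 1 summit in SO1 and 1 in H2030. Of the latter, chr18:60500001-61000000 had 35 LCC and 13 TGFb summits.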

How the data were processed

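H3K4me1 summits of 1 LCC and 1 TGFb library were compared, beside the other 11 peak lists. Groups came from the sample titles. Bowtie2, SAMtools, deepTools and hg19 were used per the submitters' processing notes, and the peak caller is not given in the sources used here, nor are its control or settings. Scores deposited by the authors were taken to be −log10 values of a p-value or of a q-value (which was not settled): no file holds a value below 1.30107, and 0.05 corresponds to 1.30103. It was used for ranks within a list, and compared between lists to find flanking summits as strong. Scores of different lists printed side by side describe each list and, with depth unknown, are no measure of a difference in signal. The peak names in each file carry 1 library name.

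Summits outside chromosomes 1 to 22 and X were left out (29 in LCC, 30 in TGFb). Distances, ranks and Wilson intervals were computed in Python 3.11.15 (numpy 2.4.6, pandas 2.3.3, scipy 1.17.1, matplotlib 3.10.9). The calls were tested on simulated data, an altered copy of the LCC list with planted differences. Such a copy cannot show how often differences between libraries give false calls. The elements named were the 10 strong ones per condition with the highest score and the 5 clusters with the most summits. The analyses of pairs, stretches, flanks and equal H3K27ac lists were added after the data were seen, and members and lists were chosen with earlier results of these data known. No test was run, with 1 library per condition. Input files were not analysed here. The reference tables are of GRCh38, no coordinates were converted, and gene lists, motifs and sequences were therefore not used here.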

Additional observations from a re-analysis of the deposited data

How the results depend on the processing

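No paired analysis was possible because each condition had 1 H3K4me1 library. The share of LCC summits found in TGFb (62.1%) was 47.9% within 250 bp, 74.6% within 1000 bp, 84.9% within 2500 bp, 61.1% for scores of at least 10 and 61.8% with lists of equal length; the reverse share (61.6%) was 47.5%, 74.4%, 85.0% and 62.0% under the first 4 settings. Strong TGFb-only elements (895) numbered 8422, 1652 and 331 with 1, 5 and 25 kb free of LCC summits, 7394 without the strength condition and 343 without a flanking summit as strong; LCC-only elements (558) numbered 6776, 1083, 164, 6850 and 175.

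Without the strength condition, TGFb-only elements had TGFb H3K27ac at 12.2%, SO1 H3K4me1 at 41.4% and H2030 H3K4me1 at 24.7%, and LCC-only elements had LCC H3K27ac (either replicate) at 10.4%, TGFb H3K27ac at 4.51% and SO1 H3K4me1 at 27.6%. Without a strong flank, TGFb H3K27ac stood at 41.1% and SO1 at 51.3% of TGFb-only elements, and LCC H3K27ac at 33.1%, SO1 at 45.7% and H2030 at 6.86% of LCC-only elements. H2030 H3K4me1 within 2500 bp was at 32.2% and 19.4%. With H3K27ac lists of equal length, TGFb-only elements had TGFb H3K27ac at 25.0% and LCC H3K27ac at 1.23%, and LCC-only elements had TGFb H3K27ac at 3.94%. Leaving out 1 LCC H3K27ac replicate gave LCC H3K27ac at 0.782% to 1.90% of TGFb-only (2.01% with both) and 14.7% to 21.3% of LCC-only elements (29.0% with both).

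TGFb-high pairs (1198) numbered 2869 at 40 points and 417 at 60, and LCC-high pairs (1305) 3249 and 404, so the order of the numbers turned at 60 points. The median difference at distal pairs acetylated in TGFb only (12.1) was 13.3 with equal H3K27ac lists and 7.75 to 10.0 without 1 LCC replicate. At those acetylated in both LCC replicates only (-9.97) it was -15.5 with marks within 2500 bp, -8.11 for pairs within 250 bp and -9.26 to -7.81 without 1 LCC replicate. Of the recomputed values, 34 moved by less than their interval or less than 1.5 times, cluster counts among them, and the other 48 are those given here. The error between H3K4me1 libraries of 1 condition is unknown, and depth, which is also unknown, can move both lists' weak summits.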

Other observations

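At the pairs whose H3K4me1 percentile differed by 50 points or more, SO1, a list with no part in choosing them, held a summit within 500 bp of 64.9% of TGFb-high and 52.0% of LCC-high pairs. The median SO1 percentile was 55.2 at the TGFb-high pairs, where LCC had 10.9 and TGFb 71.7. At the LCC-high pairs it was 45.2, where LCC had 69.0 and TGFb 9.33. H2030 held a summit at 30.7% and 27.05% of them, with median percentiles of 58.8 and 62.8. Over all pairs SO1 was present at 68.3% and H2030 at 42.8%, with median percentiles of 63.3 and 71.5, so both lists ranked lower in each of these sets than over all pairs.

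The TGFb-only strong elements with TGFb H3K27ac (313) had SO1 H3K27ac at 26.8% and H2030 H3K27ac at 18.5%. Those without TGFb H3K27ac (582) had SO1 H3K27ac at 8.93% and H2030 H3K27ac at 10.1%. At shared strong elements the contrast was larger, with SO1 H3K27ac at 72.9% with and 17.3% without TGFb H3K27ac, and H2030 H3K27ac at 44.6% and 14.9%. SO1 H3K4me1 was about equal at the TGFb-only elements with and without TGFb H3K27ac, at 58.1% and 54.1%. At the shared strong elements it stood at 91.0% with and 77.3% without TGFb H3K27ac.

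By chromosome, the ratio of TGFb to LCC summits ran from 0.975 on X to 1.06 on chromosome 21. TGFb-only strong elements were 0.260% of the elements with a TGFb summit on chromosome 19 and 0.9803% on chromosome 5. Chromosomes 13, 19 and X had more LCC-only than TGFb-only strong elements, with 22 against 16, 13 against 9 and 21 against 11.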
